A study of Mus musculus with 12 samples.

Results

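Serpins are a family of protease inhibitors, and 7 of their genes (Serpina3f, Serpina3g, Serpinb1a, Serpinb2, Serpinb6a, Serpinb8 and Serpinb9) were followed in stimulated mouse macrophages with and without emodin. They were taken by symbol, through the RefSeq accession that each array probe carries, from 20887 gene symbols found on the arrays. Of the 7 genes, 6 had a probe, with 7 probes in all because Serpina3f had 2, and all 6 passed the filter on dim probes. Serpina3g had no probe that matched by accession and was not analysed here. Among the 28172 probes whose accession the RefSeq table does not name, some may measure a listed gene, Serpina3g included.

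Peritoneal macrophages of wild-type C57BL/6 mice were profiled on 12 one-colour Agilent arrays, with 4 arrays per group. In the LPS_IFNg_emodin group, cells received 100 ng/ml lipopolysaccharide (LPS, from the outer membrane of bacteria), 20 ng/ml interferon gamma (IFNγ) and emodin, a plant anthraquinone, at 50 μM for 20 hours. The LPS_IFNg group received LPS and IFNγ at the same doses for 20 hours, and the control group received vehicle for the same time. The study asked whether emodin inhibits classical activation, the inflammatory state that LPS and IFNγ induce. Mice of both stimulated groups were 9 weeks old and labelled female, and control mice were 8 weeks old, with 2 samples labelled female and 2 labelled male. All groups shared an adherence step with a wash and a night in serum-free medium before treatment.

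A serpin presents a flexible reactive loop as bait, and the protease that cuts it is trapped in a covalent complex. Clade B serpins lack a classical secretion signal and mostly act inside cells, where they guard the cytosol against proteases that leak from granules or lysosomes. Clade A serpins are mostly secreted, and in the mouse the relatives of human SERPINA3 have expanded into a cluster of similar genes. Macrophages are known to raise several serpins when they meet bacterial products or interferons.

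The 75th percentile of the processed signal was 435 to 547 on LPS_IFNg_emodin arrays, 764 to 951 on LPS_IFNg arrays and 745 to 969 on control arrays, and 45.4% to 50.8% of probes were well above background. Every level given here is a log2 signal relative to that percentile of its own array, so it compares arrays for 1 probe and never 1 probe with another. All 8 stimulated arrays lay on 1 slide and all 4 control arrays on another, so slide and age cannot be told apart from treatment in comparisons with control. Replicate 3 of LPS_IFNg_emodin and of LPS_IFNg, both labelled female, had signal for the Y-linked gene Eif2s3y (1.66 and 0.76) and none well above background for Xist. Control replicates 3 and 4, labelled male, had Xist signal and no Y-linked signal well above background. Without replicate 3 of both stimulated groups, all 18 serpin results (6 genes in 3 comparisons) kept their direction and their side of the threshold. The labels disagree on the cells, with macrophages as the tissue and neutrophils in the design text. Of 9 macrophage markers with a probe, 8 were well above background on every LPS_IFNg_emodin array (Timd4 on none), and 9 on every LPS_IFNg and every control array.

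Emodin was associated with much lower signal of Serpinb2, Serpinb9 and Serpinb1a in stimulated macrophages, while the differences of Serpina3f and Serpinb8, -0.073 and 0.045 log2 units, did not pass the test (with spike-in scaling both were lower). Of the 6 genes tested, 3 fell in LPS_IFNg_emodin against LPS_IFNg (Serpinb1a, Serpinb2 and Serpinb9) and 1 rose (Serpinb6a), at a limma adjusted p under 0.05 over 13129 genes. Over all genes tested, 35.6% were lower and 36.6% higher in that comparison, 72.2% together, so 4 of 6 is near the background. At 2-fold or more, 3 of the 6 were called, against 26.6% of all genes. The median difference of the 6 genes was -1.21 on the log2 scale, against 0.02 for all genes. It is the midpoint of Serpinb1a (-2.34) and Serpina3f (-0.073), so no serpin lay near it. The serpins were also chosen with earlier results of these data known. With each array scaled to its spike-ins (RNAs added in a fixed mix) instead, the median of all genes moved to -0.67, 1216 genes were higher and 8586 lower, against 4804 and 4680 with the percentile, and the serpin counts became 0 higher and 5 lower. Every emodin difference here is relative to the percentile unless the spike-ins are named.

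In LPS_IFNg against control, 4 of the 6 serpins rose (Serpina3f, Serpinb2, Serpinb8 and Serpinb9) and 2 fell (Serpinb1a and Serpinb6a), where 33.6% of all genes were higher and 35.5% lower (69.1% together, and 26.3% at 2-fold or more). In LPS_IFNg_emodin against control, Serpina3f, Serpinb8 and Serpinb9 were higher and Serpinb1a, Serpinb2 and Serpinb6a lower, where 39.8% of all genes were higher and 38.1% lower (77.9% together, and 38.5% at 2-fold or more). The median difference over the 6 serpins was 3.66 in the first of these comparisons and 0.04 in the second, against medians over all genes of -0.04 and 0.02. These too are midpoints, of Serpinb8 (2.04) and Serpinb9 (5.28) in the first and of Serpinb6a (-0.41) and Serpinb9 (0.49) in the second. In LPS_IFNg_emodin against LPS_IFNg, 4 of the 6 serpins had no overlap between arrays, as had 67.8% of all genes. The same count was 6 of 6 in LPS_IFNg against control (64.4% of all genes) and 6 of 6 in LPS_IFNg_emodin against control (72.5%). The comparisons share arrays, so their values are set side by side only.

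**Figure D1:**
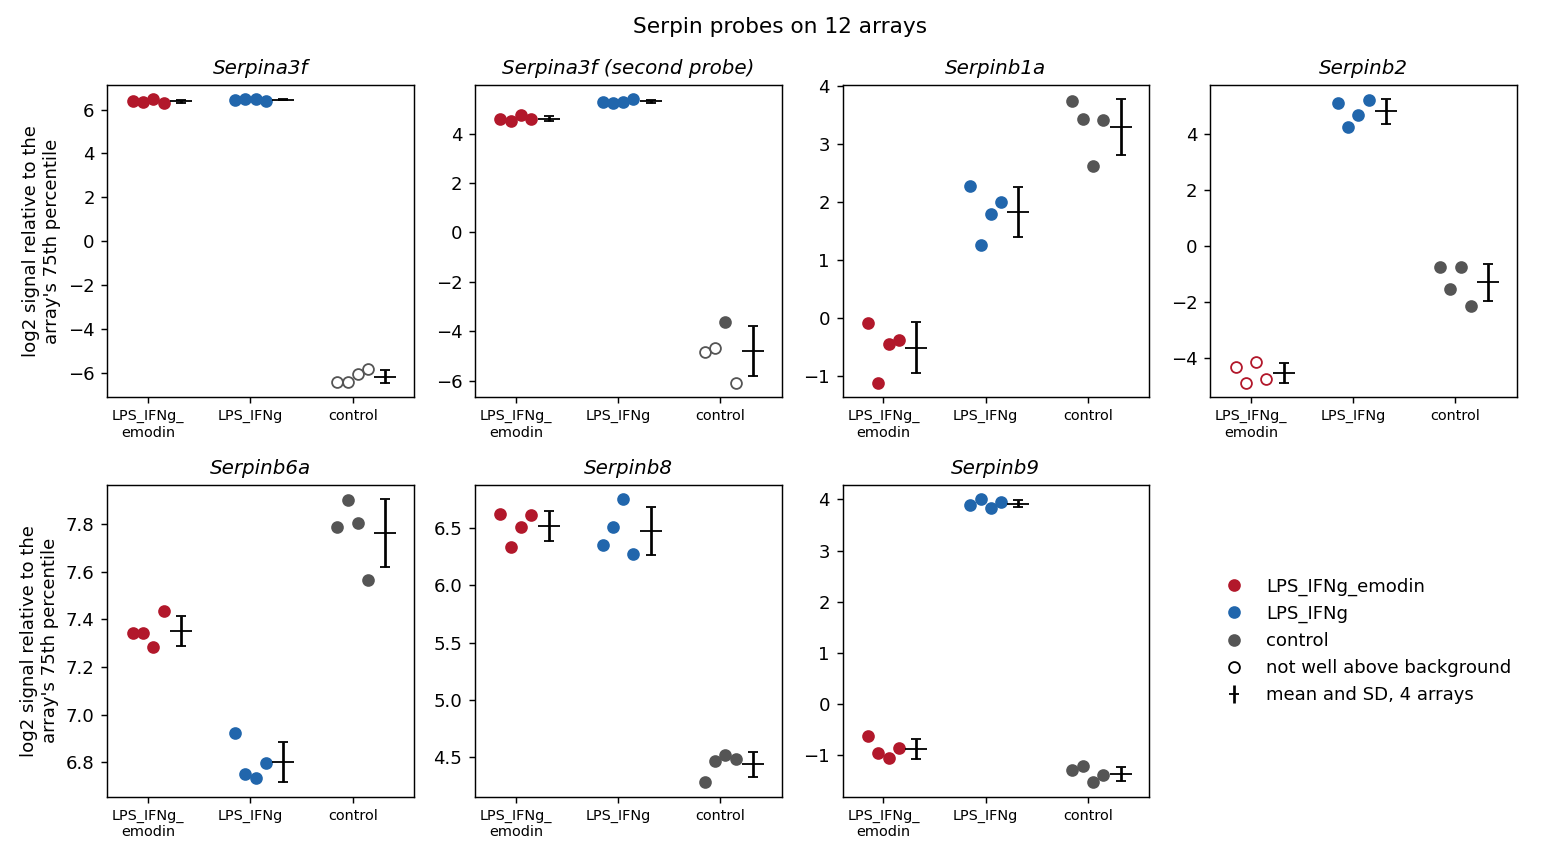
Log2 signal relative to the array's 75th percentile (vertical axes, a scale per panel) of 7 probes for 6 serpins on 4 arrays each of LPS_IFNg_emodin (left), LPS_IFNg and control; open points were not well above background, and the bar is the mean and SD. Serpinb2 and Serpinb9 were high only on the 4 LPS_IFNg arrays among the 12, Serpina3f and Serpinb8 on both stimulated groups, and Serpinb1a was highest on control arrays and lowest on LPS_IFNg_emodin arrays.

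Serpinb2 encodes plasminogen activator inhibitor 2, which inhibits urokinase and tissue plasminogen activator. Its log2 relative signal was -4.35, -4.90, -4.15 and -4.78 on LPS_IFNg_emodin arrays, 5.12, 4.26, 4.70 and 5.22 on LPS_IFNg arrays, and -0.77, -1.53, -0.76 and -2.16 on control arrays. The groups did not overlap, LPS_IFNg being highest and LPS_IFNg_emodin lowest, below the unstimulated cells. None of the 4 LPS_IFNg_emodin arrays was well above background, so Serpinb2 was at least 538-fold lower there than in LPS_IFNg. For this bound, each array of the dimmer group was given the lowest signal that passed as well above background on it, or the probe's signal where that was higher. The fitted difference was -9.37 ± 0.32 (SE, n = 4 each, limma adjusted p = 8.3e-10), in which the LPS_IFNg_emodin side is background signal. In LPS_IFNg it was 70.1-fold higher than in control, a difference of 6.13 ± 0.32 (adjusted p = 8.68e-09). In LPS_IFNg_emodin it was at least 7.68-fold lower than in control, with a fitted difference of -3.24 ± 0.32 (adjusted p = 1.54e-06). Both bounds hold for this processing only. With normexp background correction the fitted log2 differences were smaller, -7.49 against LPS_IFNg and -1.60 against control. In whole-culture RNA, fewer cells of a type and less RNA per cell cannot be told apart.

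Serpinb9, known as Spi6, inhibits granzyme B, the cytotoxic protease of killer lymphocytes. Its log2 relative signal was -0.62, -0.96, -1.06 and -0.86 on LPS_IFNg_emodin arrays, 3.89, 4.01, 3.83 and 3.95 on LPS_IFNg arrays, and -1.29, -1.22, -1.53 and -1.40 on control arrays. The LPS_IFNg arrays stood far above the other groups and differed little among themselves. The LPS_IFNg_emodin arrays were closer to control but did not overlap with it. Serpinb9 was 27.8-fold lower in LPS_IFNg_emodin than in LPS_IFNg, a difference of -4.80 ± 0.10 (limma adjusted p = 2.94e-11), and 38.9-fold higher in LPS_IFNg than in control, a difference of 5.28 ± 0.10 (adjusted p = 2.28e-12). Against control, LPS_IFNg_emodin was 1.40-fold higher, a difference of 0.49 ± 0.10 (adjusted p = 0.000843). By size, the fall with emodin ranked 95 and the rise in LPS_IFNg against control 132 among 13129 genes.

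Serpinb1a inhibits neutrophil elastase, cathepsin G and proteinase 3, the serine proteases of neutrophil granules. Its log2 relative signal was -0.086, -1.12, -0.46 and -0.38 on LPS_IFNg_emodin arrays, 2.27, 1.26, 1.79 and 2.00 on LPS_IFNg arrays, and 3.74, 3.43, 2.62 and 3.41 on control arrays. Control was highest, LPS_IFNg between and LPS_IFNg_emodin lowest, with no overlap between neighbours. It was thus the serpin of the 6 that fell both in LPS_IFNg against control and in LPS_IFNg_emodin against LPS_IFNg. The difference was -2.34 ± 0.28 in LPS_IFNg_emodin against LPS_IFNg (5.07-fold lower, limma adjusted p = 1.41e-05). It was -1.47 ± 0.28 in LPS_IFNg against control (2.77-fold lower, adjusted p = 0.000627) and -3.81 ± 0.28 in LPS_IFNg_emodin against control (14.0-fold lower, adjusted p = 1.19e-07).

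Markers of other cells moved within the groups too. The summed relative signal of 12 mesothelial and fibroblast markers, 71.7% to 93.0% of it from the fibroblast genes Dcn and Col1a2, was 35.6, 10.9, 13.1 and 26.2 in replicates 1 to 4 of LPS_IFNg_emodin, 134, 69.3, 93.1 and 124 in LPS_IFNg, and 39.2, 39.5, 73.6 and 17.1 in control. Of the 12, 6 were well above background on every LPS_IFNg_emodin array, 8 on every LPS_IFNg array and 11 on every control array. Upk3b, Upk1b and Lrrn4 were well above background on no array of either stimulated group, Msln and Krt18 on every one, and Wt1 and Krt19 on every LPS_IFNg array. Single markers did not all follow the sum. In LPS_IFNg_emodin against LPS_IFNg 5 of 11 tested fell and 0 rose (median -0.97). In LPS_IFNg against control 6 fell and 3 rose (median -1.24), although the sum was highest in LPS_IFNg. Of those 6, Upk1b, Lrrn4 and Krt8 passed the filter on dim probes only through control. The filter thus favoured their fall, which enters this count and median. Within LPS_IFNg_emodin and within LPS_IFNg, replicates ordered by this sum stood in the same order as by Serpinb1a, while the control replicate with the highest sum had the lowest Serpinb1a. The order was not particular to these markers, since the summed B cell markers and the summed signal of 5 mast cell markers had it within both stimulated groups. The mast cell sum was 1.20, 0.424, 0.501 and 0.938 in LPS_IFNg_emodin and 0.918, 0.430, 0.613 and 0.810 in LPS_IFNg. On LPS_IFNg arrays it was also the inverse order of the 75th percentile that scaled them. The part of mesothelial cells, fibroblasts, B cells, mast cells or scaling in the Serpinb1a result was not tested. The summed signal of 8 neutrophil markers was 25.9 to 32.4 in LPS_IFNg_emodin, 21.4 to 25.7 in LPS_IFNg and 22.6 to 33.5 in control, and Ngp was well above background on no array. Of these markers 4, 3 and 5 were well above background on every array of the 3 groups in that order. Elane and S100a8 made the largest parts of the sum on every array. With emodin against LPS_IFNg all 6 tested were called, where 72.2% of all genes were. S100a9, Ltf, Mpo and Elane were higher, and S100a8 and Camp lower. S100a9, Ltf and Mpo were well above background on no LPS_IFNg array, and Mpo passed the filter only through LPS_IFNg_emodin, where it was highest. The part of neutrophils in the Serpinb1a result was not tested.

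For lymphocytes, which also carry Serpinb9, 5 B cell markers summed to 0.125 to 0.298 in LPS_IFNg_emodin, 0.553 to 1.73 in LPS_IFNg and 0.857 to 1.99 in control. The 5 T cell markers summed to 5.66 to 7.54, 5.10 to 6.61 and 7.86 to 9.51 in those groups in the same order, and 5 NK cell markers to 0.733 to 0.886, 0.538 to 0.851 and 0.617 to 0.683. The NK sums of the stimulated groups overlapped, and the B cell sum was lower on all 4 LPS_IFNg_emodin arrays than on the other 8. Prf1 made the largest part of the NK sum on every array, and Lat and Cd3e most of the T cell sum. In LPS_IFNg_emodin against LPS_IFNg, Prf1 was called higher and Gzma lower, where 72.2% of all genes were called. Gzma passed the filter on dim probes only through LPS_IFNg. Cd3d and Cd3g were well above background on no LPS_IFNg_emodin or control array. Well above background on every array of LPS_IFNg_emodin, LPS_IFNg and control, in that order, were 0, 2 and 3 of the B cell markers, 2, 3 and 3 of the T cell markers, and 1, 2 and 1 of the NK markers. The part of lymphocytes in the Serpinb9 result was not tested.

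Serpinb6a inhibits cathepsin G. Its log2 relative signal was 7.34, 7.34, 7.28 and 7.44 on LPS_IFNg_emodin arrays, 6.92, 6.75, 6.73 and 6.80 on LPS_IFNg arrays, and 7.79, 7.90, 7.81 and 7.57 on control arrays. The groups did not overlap, with LPS_IFNg lowest and control highest. Serpinb6a was 1.47-fold higher in LPS_IFNg_emodin than in LPS_IFNg, a difference of 0.55 ± 0.08 (limma adjusted p = 6.32e-05), but with spike-in scaling the difference was -0.14 ± 0.13 (adjusted p = 0.34). In LPS_IFNg it was 1.95-fold lower than in control, a difference of -0.97 ± 0.08 (adjusted p = 5.4e-07). In LPS_IFNg_emodin it was 1.33-fold lower than in control, a difference of -0.41 ± 0.08 (adjusted p = 0.000479).

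Serpinb8 is known, from the human protein, as an inhibitor of the proprotein convertase furin. Its log2 relative signal was 6.62, 6.34, 6.51 and 6.62 on LPS_IFNg_emodin arrays, 6.36, 6.51, 6.76 and 6.28 on LPS_IFNg arrays, and 4.28, 4.47, 4.52 and 4.48 on control arrays. Arrays of the stimulated groups overlapped, and all 8 lay above every control array. The difference between LPS_IFNg_emodin and LPS_IFNg was 0.045 ± 0.11 (95% interval -0.19 to 0.28, limma adjusted p = 0.724), and with spike-in scaling it was -0.65 ± 0.15 (adjusted p = 0.00149). Under 5 other alternatives it was below 0 and not called. Serpinb8 was 4.11-fold higher in LPS_IFNg than in control, a difference of 2.04 ± 0.11 (adjusted p = 1.06e-08), and 4.24-fold higher in LPS_IFNg_emodin than in control (adjusted p = 5.31e-09).

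Serpina3f belongs to the mouse cluster related to human SERPINA3. The log2 relative signal of its brighter probe, which stood for the gene, was 6.37, 6.36, 6.47 and 6.30 on LPS_IFNg_emodin arrays, 6.44, 6.48, 6.47 and 6.41 on LPS_IFNg arrays, and -6.41, -6.40, -6.04 and -5.84 on control arrays. No control array was well above background, and the stimulated groups overlapped. Serpina3f was at least 2479-fold higher in LPS_IFNg than in control (fitted difference 12.62 ± 0.12, limma adjusted p = 1.35e-14) and at least 2357-fold higher in LPS_IFNg_emodin than in control (fitted difference 12.55, adjusted p = 1.44e-14). The fitted differences have background signal on the control side, so the bounds carry the size, for this probe and this processing only. With normexp background correction the fitted differences were smaller, 9.57 and 9.26 in these 2 comparisons. On the second probe of the gene the fitted rises were 1097-fold and 679-fold.

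The difference of Serpina3f between LPS_IFNg_emodin and LPS_IFNg was -0.073 ± 0.12 (95% interval -0.32 to 0.18, limma adjusted p = 0.586). It passed the threshold under 4 other processings, at -0.30 with quantile normalization, -0.31 with normexp background correction, -0.31 in the authors' value table and -0.77 with spike-in scaling. Its second probe read 4.58, 4.50, 4.74 and 4.61 on LPS_IFNg_emodin arrays, 5.29, 5.24, 5.28 and 5.39 on LPS_IFNg arrays, and -4.83, -4.67, -3.61 and -6.08 on control arrays, of which replicate 3 was well above background. On that probe the stimulated groups did not overlap, with a difference of -0.69 ± 0.37 (adjusted p over all probes = 0.111), so the probes disagree in size. Near-identical neighbours may bind the same probes, and the probe sequences were not used here.

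**Figure D2:**
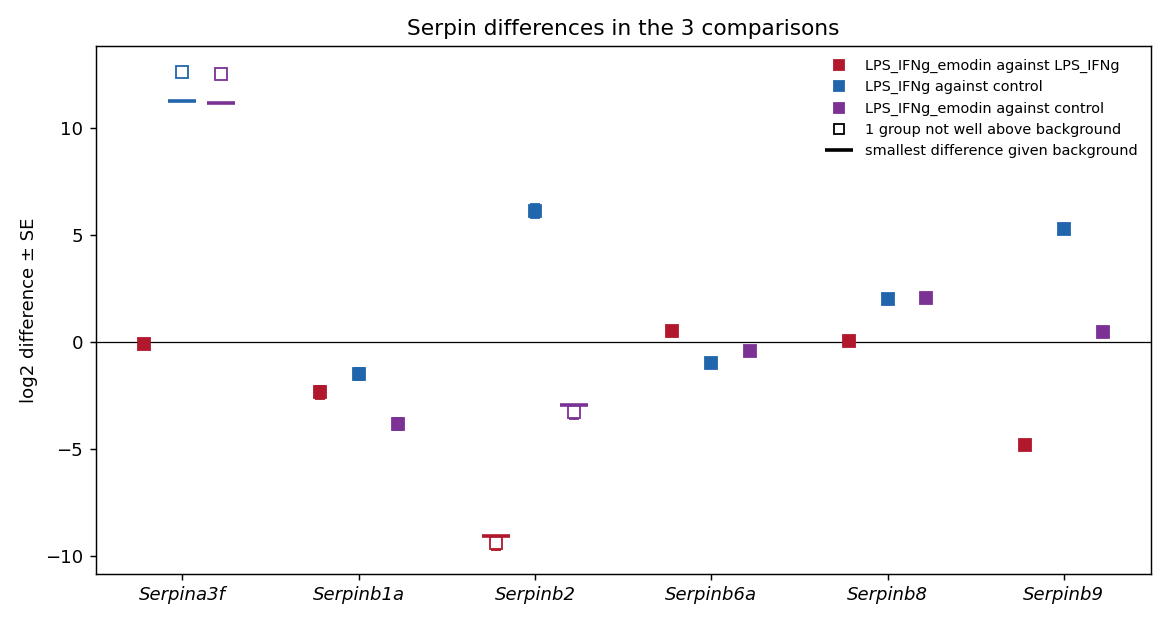
Log2 differences with their SE (n = 4 arrays per group) of 6 serpins in LPS_IFNg_emodin against LPS_IFNg, LPS_IFNg against control and LPS_IFNg_emodin against control. Filled squares have both groups above background, and open ones carry a bar at the smallest difference that background allows with percentile scaling of the processed signal. Serpinb2 and Serpinb9 lie far below and above 0 in the first 2 comparisons (-9.37 and 6.13, -4.80 and 5.28), and Serpina3f and Serpinb8 lie at -0.073 and 0.045 in the first, where spike-in scaling gives -0.77 and -0.65, and gives -0.14 in place of 0.55 for Serpinb6a.

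Promoter sequence was examined for the genes with the largest stimulated rises, Serpina3f, Serpinb2 and Serpinb9, since LPS and IFNγ act through transcription factors with known sites. Of the 7 genes, 6 had an entry in the RefSeq promoter table (build GRCm38.p6), with 9 annotated starts among them; Serpinb1a was not matched. The 250 bases before each start were searched on both strands for GAS (TTCNNNGAA, bound by STAT dimers), ISRE (GAAA, any 2 bases, then GAAA, bound by interferon-regulated factors), kB (GGG, any 5 bases, then CC, bound by NF-kB), AP1 (TGANTCA) and CRE (TGACGTCA). Over 32851 windows of the table, the share with a match was 7.02% for GAS, 2.98% for ISRE, 45.8% for kB, 6.75% for AP1 and 1.55% for CRE. The windows read 5′ to 3′ on the + strand, with matches in capitals: overlapping kB and then GAS in Serpina3f (chr12:104214294-104214543), AP1 in Serpinb2 (chr1:107511173-107511422) and ISRE in Serpinb9 (chr13:33004291-33004540).
Serpina3f: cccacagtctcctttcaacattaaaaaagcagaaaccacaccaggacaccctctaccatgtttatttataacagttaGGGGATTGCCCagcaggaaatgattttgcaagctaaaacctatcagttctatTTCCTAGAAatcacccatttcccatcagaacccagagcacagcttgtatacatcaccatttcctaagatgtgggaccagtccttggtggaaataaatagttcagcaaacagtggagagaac
Serpinb2: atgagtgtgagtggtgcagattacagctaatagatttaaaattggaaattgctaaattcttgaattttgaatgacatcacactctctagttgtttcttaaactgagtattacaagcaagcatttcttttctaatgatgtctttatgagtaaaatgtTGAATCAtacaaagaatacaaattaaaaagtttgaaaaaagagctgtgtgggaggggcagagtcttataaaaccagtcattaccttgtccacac
Serpinb9: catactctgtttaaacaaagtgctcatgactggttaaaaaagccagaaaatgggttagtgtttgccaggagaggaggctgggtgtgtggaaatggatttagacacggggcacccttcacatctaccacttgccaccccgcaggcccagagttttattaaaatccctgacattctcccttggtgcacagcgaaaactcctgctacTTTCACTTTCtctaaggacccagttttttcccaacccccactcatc
In the Serpina3f window shown the GAS match TTCCTAGAA lay 121 to 113 bases before the start. The second Serpina3f start, downstream of the first, had the same GAS match 210 to 202 bases before it and no kB match. The Serpinb2 AP1 match TGAATCA lay 94 to 88 bases and the Serpinb9 ISRE match TTTCACTTTC 46 to 37 bases before theirs. Serpina3g, for which no probe was named, had a GAS match 33 to 25 bases and a kB match 85 to 76 bases before its start. Serpinb8 had a kB match 53 to 44 bases and an AP1 match 23 to 17 bases before its start. Of the 2 Serpinb6a windows, 1 held an ISRE and a GAS match that overlap, and the other held no match to any of the 5 motifs. The second Serpinb2 start, downstream of the first, had the same AP1 match 181 to 175 bases and a GAS match, TTCCAAGAA, 77 to 69 bases before it. CRE matched in none of the 9 windows. A match is a string of letters, not a shown site, and no binding was measured.

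**Figure D3:**
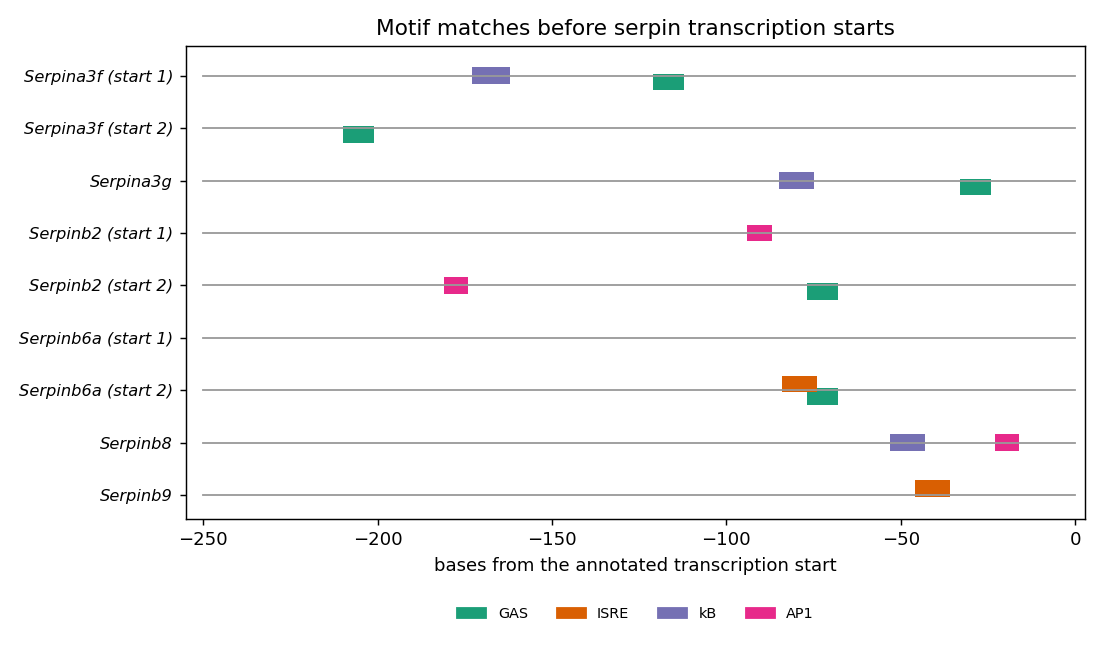
Positions of motif matches in the 250 bases before 9 annotated starts of 6 serpin genes (horizontal axis, bases from the start; colours mark GAS, ISRE, kB and AP1). The window of the first Serpina3f start and that of Serpina3g carry kB and GAS, and the second Serpina3f window carries GAS without kB. Serpinb9 carries an ISRE close to its start, and 1 Serpinb6a window is empty.

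Genes whose log2 signal ran most closely with each serpin over the 12 arrays were found by Pearson's r, which the separation of the 3 groups largely sets. Serpina3f was closest to Gbp5 (r = 0.9996), Cxcl9 (0.9987) and Irgm2 (0.9986), an interferon-inducible GTPase, a chemokine of the CXCR3 receptor and an immunity-related GTPase. Serpinb9 was closest to Rmi2 (0.9963), Ly6i (0.9962) and Tcstv3 (0.9956). Rmi2 and Tcstv3 had means of -6.21 and -5.89 in LPS_IFNg_emodin and of -6.57 and -6.63 in control. These means lay below the lowest signal well above background on those arrays, as did that of Cxcl9 in control (-6.53). Serpinb2 was closest to Trip13 (0.9912), Klra2 (0.9908) and G3bp2 (0.9896). Serpinb1a was closest to Etv1 (0.9869), Mmp19 (0.9867) and Crtap (0.985). Serpinb6a ran with Dctpp1 (0.9959), Dcxr (0.994) and Vkorc1 (0.994), and Serpinb8 with 1700110I01Rik (0.9978), Zfp791 (0.9971) and Slc15a3 (0.9971).

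The rest of the serpin family gives the setting of the 6. Of 62 other serpin genes, 54 had a probe and 23 were tested. In LPS_IFNg_emodin against LPS_IFNg, 9 of the 23 fell and 6 rose (median -0.15), where 72.2% of all genes were called, and with spike-in scaling 14 fell and 0 rose (median -0.84). The 9 include Serpinb1c, which was well above background on no array of either group, so its fall is not a measured one. The 6 include Serpina3m, well above background only in LPS_IFNg_emodin. In LPS_IFNg against control, 11 rose and 4 fell (median 0.52), where 69.1% of all genes were called, and in LPS_IFNg_emodin against control 8 rose and 5 fell, where 77.9% were. Those called at 2-fold or more in either of the first 2 comparisons are described, with 1 exception.

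Serping1, the secreted inhibitor of complement C1, read 1.11, -0.59, -0.053 and 0.57 on LPS_IFNg_emodin arrays, 5.56, 4.12, 4.58 and 5.19 on LPS_IFNg arrays, and 0.27, 0.42, 1.34 and -0.92 on control arrays. The LPS_IFNg arrays lay above all others, and the other groups overlapped. Its difference was -4.60 ± 0.49 in LPS_IFNg_emodin against LPS_IFNg (limma adjusted p = 4.66e-06) and 4.59 ± 0.49 in LPS_IFNg against control (adjusted p = 4.89e-06). Its replicates stood in the order of the mesothelial and fibroblast sum within all 3 groups, and in that of the B cell and mast cell sums within both stimulated groups. The part of those cells was not tested.

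Serpinh1, a collagen chaperone, differed by -3.92 ± 0.51 in LPS_IFNg_emodin against LPS_IFNg and by 1.74 ± 0.51 in LPS_IFNg against control. Serpinf1, pigment epithelium-derived factor, differed by -2.58 ± 0.43 and 1.27 ± 0.43. Both stood in the order of the mesothelial and fibroblast sum within each stimulated group, which was also the order of the B cell and mast cell sums. The part of those cells was not tested. Serpini1, neuroserpin, differed by -2.17 ± 0.39 in LPS_IFNg_emodin against LPS_IFNg, with 1 of 4 LPS_IFNg_emodin arrays well above background, and by -0.26 ± 0.39 in LPS_IFNg against control, the second not passing the test.

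Relatives of the followed genes differed among themselves. Serpina3i differed by 8.00 ± 0.26 in LPS_IFNg against control and by -0.21 ± 0.26 in LPS_IFNg_emodin against LPS_IFNg (not called). As for Serpina3f, spike-in scaling brought a call there, at -0.90 ± 0.21 (adjusted p = 0.00131). Serpina3n, an inhibitor of granzyme B in the mouse, was at least 3.26-fold higher in LPS_IFNg than in control, and the emodin difference of -1.90 ± 0.60 passed the test although 1 of 4 LPS_IFNg_emodin arrays was well above background. Serpina3m was at least 1.45-fold higher in LPS_IFNg_emodin than in LPS_IFNg, a call lost with spike-in scaling (0.74 ± 0.38, adjusted p = 0.087). Serpina3n passed the filter on dim probes only through LPS_IFNg, and Serpina3m only through LPS_IFNg_emodin, the groups where each was highest. The filter thus favoured the direction of these calls. Serpinb1b, unlike Serpinb1a, rose by 4.02 ± 0.30 in LPS_IFNg against control and fell by 4.53 ± 0.30 in LPS_IFNg_emodin against LPS_IFNg, where 1 of 4 LPS_IFNg_emodin arrays was well above background. Serpinb1c was at least 2.00-fold lower in LPS_IFNg than in control, the only group through which it passed the filter. Serpinb6b, an inhibitor of granzyme A in the mouse, fell by 1.77 ± 0.37 in LPS_IFNg_emodin against LPS_IFNg and rose by 1.32 ± 0.37 in LPS_IFNg against control, both opposite in sign to Serpinb6a with percentile scaling. Serpinb6c, a close relative of Serpinb6a named after its values were seen, differed by 0.57 ± 0.12 in LPS_IFNg_emodin against LPS_IFNg (-0.13 ± 0.15 with spike-in scaling) and by -0.95 ± 0.12 in LPS_IFNg against control. Whether either probe also binds the other transcript was not tested.

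**Figure D4:**
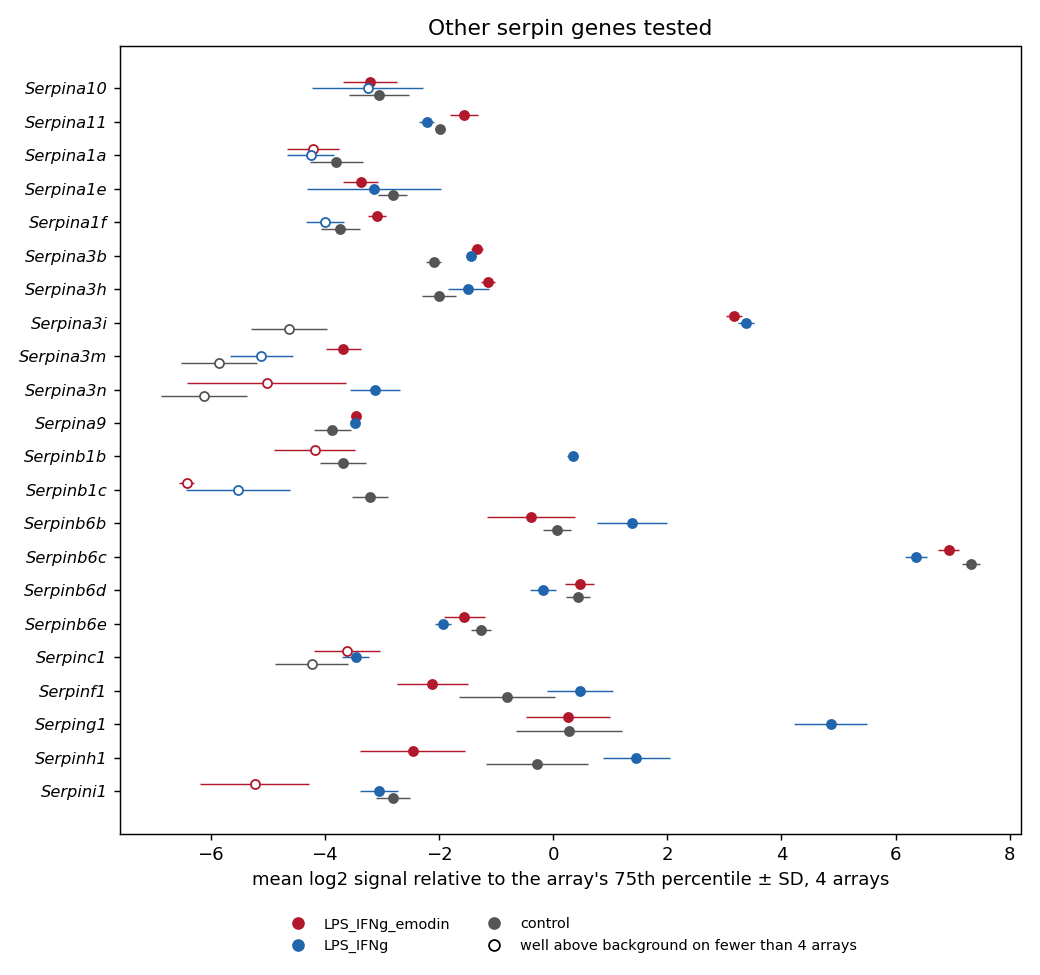
Mean log2 signal relative to the array's 75th percentile (horizontal axis) with SD over 4 arrays for 22 of the 23 other serpins tested, in LPS_IFNg_emodin (top of each trio), LPS_IFNg and control; open points mark probes well above background on fewer than 4 arrays. Serping1 and Serpinb1b stand highest in LPS_IFNg, and in LPS_IFNg_emodin against LPS_IFNg Serping1 fell by 4.60 and Serpinb1b fell by 4.53.

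A list of proteases, not limited to targets of these serpins, was also followed, as 28 genes with the urokinase receptor, 22 of them tested. In LPS_IFNg_emodin against LPS_IFNg, 10 rose and 7 fell (median 0.24), where 72.2% of all genes were called. With spike-in scaling 4 rose and 11 fell, where 1216 of all genes rose and 8586 fell. In LPS_IFNg against control, 13 rose and 5 fell (median 0.46), where 69.1% of all genes were called, and in LPS_IFNg_emodin against control 12 rose and 2 fell, where 77.9% were. The proteases with the largest emodin differences follow.

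Plat, tissue plasminogen activator and a protease that Serpinb2 inhibits, was at least 10.4-fold lower in LPS_IFNg_emodin than in LPS_IFNg (fitted difference -3.69 ± 0.41, limma adjusted p = 6.42e-06), in the direction of Serpinb2. Plau, urokinase, the other protease that Serpinb2 inhibits, was chosen after its values were seen: it read 2.84, 2.85, 2.91 and 2.68 on LPS_IFNg_emodin arrays, 1.61, 1.71, 1.61 and 1.57 on LPS_IFNg arrays, and 0.68, 0.72, -0.016 and 0.77 on control arrays. Its emodin difference was 1.19 ± 0.15 (adjusted p = 1.77e-05) and 0.50 ± 0.17 with spike-in scaling (adjusted p = 0.0165), opposite in sign to that of Serpinb2. Furin, the protease of Serpinb8, differed by 1.23 ± 0.11 in LPS_IFNg_emodin against LPS_IFNg (0.54 ± 0.14 with spike-in scaling) and by 1.15 ± 0.11 in LPS_IFNg against control. Ctsc, cathepsin C, which activates granule serine proteases, differed by -1.89 ± 0.13 and 1.82 ± 0.13 in the first 2 comparisons. Gzma, granzyme A, was at least 3.11-fold lower in LPS_IFNg_emodin than in LPS_IFNg, and Mmp12, macrophage elastase, differed by 1.26 ± 0.18 there (0.57 ± 0.17 with spike-in scaling) and by -3.26 ± 0.18 in LPS_IFNg against control. Plat and Gzma passed the filter on dim probes only through LPS_IFNg, where they were highest, so the filter favoured their fall with emodin.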

How the data were processed

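RNA from 12 samples was hybridised to 1 one-colour array each. The deposited scanner files hold intensity per spot, and the submitters' processing notes name Agilent Feature Extraction 10.7.3.1. Per the file headers, the processed signal had its background subtracted without normalisation across arrays, and flags mark background, saturation and outliers. The deposited value table holds log2 values that follow the quantile-normalised log2 signal after centring each probe, which was inferred by matching; columns named control 1, 3 and 4 held the values of scanner files 4, 1 and 3 of that group, and the table served only as an alternative. Column medians were -0.031 to 0.042.

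Control spots and outlier spots (78 to 415 per array) were left out, spots of a probe averaged, and the log2 signal had the array's 75th percentile subtracted. A probe needed to be well above background on every array of any 1 group (27375 of 55681 did). Names came from a RefSeq table (GRCm38.p6), used for names because the array is annotated on another build: 27509 probes had 1 symbol, 0 several and 28172 none. The brightest probe stood for each of 13129 genes, 3353 of which had several. limma 3.58.1 in R 4.3.3 was fitted to all 12 arrays with 3 group means (9 residual and 2.49 prior degrees of freedom), and genes were called at a two-sided Benjamini-Hochberg adjusted p under 0.05; errors of differences are standard errors. The number of arrays limits the precision. The code was tested on simulated data.

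The serpins, lists and rules were chosen with earlier results of these data known. Named were all 7 serpins with every probe, other serpins called at 2-fold or more in LPS_IFNg against control or LPS_IFNg_emodin against LPS_IFNg, the 5 proteases with the largest emodin difference, and 3 likest genes per serpin; 1 gene that the rule names is not reported here. The design text calls samples biological replicates, but no label ties a sample to an animal, so the p-values cover only the spread among these samples, which may be technical. Deviations of same-numbered LPS_IFNg_emodin and LPS_IFNg samples correlated at 0.15 to 0.284 in 4 pairs (-0.244 to 0.0481 for different numbers), and the numbers were taken to pair these samples. Values as high arose across slides, where control replicate 4 correlated with replicate 2 of LPS_IFNg_emodin (0.297) and of LPS_IFNg (0.313). The pairing is therefore an assumption. Replicate 3 was, in both stimulated groups, the only sample with Y-linked signal and without Xist signal well above background. If the numbers do pair the samples, the replicate orders described within LPS_IFNg_emodin and within LPS_IFNg are not independent of each other. Normexp used the median spot and background signals, since the planned mean signal column was not in the files. Alternatives covered scaling, background correction, filters, probe choice, replicate block and leaving out samples.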

Additional observations from a re-analysis of the deposited data

How the results depend on the processing

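Of 444 values of single serpins under alternatives, 433 kept their direction and their side of the threshold. Serpinb8 in LPS_IFNg_emodin against LPS_IFNg turned below 0 without being called in 5 (-0.21 to -0.021), and Serpina3f there gained a call in 4. Of 225 counts, 222 stayed within 1.5 times. Spike-in scaling of LPS_IFNg_emodin against LPS_IFNg gave 0 serpins higher and 5 lower, with Serpinb6a at -0.14 and Serpinb8 at -0.65; it moved the median of all genes to -0.67. Control arrays were not scaled that way, since the spike-in mean log2 signal was 14.0 to 14.3 on the 8 stimulated arrays and 11.4 to 11.9 on control arrays. With probes detected on all 12 arrays only, 2 serpins were called higher in LPS_IFNg against control, since Serpina3f and Serpinb2 were then not tested. With the replicate block on the paired numbers, all 36 serpin values kept their call, and in LPS_IFNg_emodin against LPS_IFNg 9433 genes were called with the block on all 12 arrays, against 9484 without it, and 9622 with the block on the 8 arrays compared, against 9491 without it. Leaving out 1 array at a time gave 9087 to 9678 genes called there, 8629 to 9110 in LPS_IFNg against control and 9954 to 10301 in LPS_IFNg_emodin against control. With controls labelled female only, 12 of 12 serpin results kept their call. Signals near background, such as Serpinb2 with emodin and Serpina3f in control, give only bounds. These bounds hold for the main processing, and normexp background correction gave smaller differences for both genes.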
